A study of Mus musculus with 13 samples.

Results

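The 9 probe sets described here are mmu-miR-2132_st, mmu-miR-2133_st, mmu-miR-2134_st, mmu-miR-2135_st, mmu-miR-2138_st, mmu-miR-2140_st, mmu-miR-2141_st, mmu-miR-2145_st and mmu-miR-2146_st, out of 717 mature mouse miRNA probe sets on an array run on whole mouse aorta. They were chosen within the run of names from miR-2132 to miR-2146, by 2 properties. These were a bright signal and a name for which no mouse gene was matched in RefSeq (assembly GRCm38.p6). The brightness is therefore a description of the choice and not a result, and the changes with age were known when the names were picked. Both properties hold by that choice, so their presence in the values used here is no check. No gene of the same name was matched for any of the 9, and each of the 9 was above the array background on all 13 arrays. The background of an array is the 99th percentile over its 690 probe sets for hairpin precursors, which lay between 1.79 and 2.29 on the log2 scale.

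The study profiled aortic miRNA of male mice of strain C57/BL6 with and without the mineralocorticoid receptor (MR), which binds the salt-retaining steroid hormone aldosterone, in smooth muscle cells. The groups were young MR-intact (n = 3 arrays), young MR-knockout (n = 3), aged MR-intact (n = 4) and aged MR-knockout (n = 3). The series design gives the young mice as 3 to 4 months old and the aged mice as 12 months old, and the sample labels write the MR-intact genotype as wildtype. The labels name neither the promoter that drives the deletion, nor a batch, nor RNA quality, and no label ties an array to a mouse of its own. Each sample is titled with a number of unstated meaning, and the titles of all aged samples are lower than those of the young ones. Replicate numbers were given here in the order of the samples and only name an array. The p-values therefore cover only the spread from array to array, which may be technical. MR messenger RNA is not measured on this array, so the knockout itself was not checked. miR-143 and miR-145, the markers of smooth muscle, were above background on all 13 arrays.

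Mature miRNAs are short RNAs cut from hairpin precursors, and they guide a silencing complex to messenger RNAs through the seed, which is bases 2 to 8. New miRNA names were assigned in numbered series as small RNAs were sequenced, and a name is dropped from the catalogue when its reads turn out to come from another abundant RNA, such as ribosomal or transfer RNA. A probe printed on an array before that keeps its name and still measures whatever RNA binds it. No target or function in the artery is given here for the 9 names.

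The table held 12 names of the run from miR-2131 to miR-2147, the 9 and 3 more, miR-2136, miR-2137 and miR-2139, for which a RefSeq gene was matched. Their mature sequences are shown first, with the seed in capitals, because they are the neighbours in number of the 9 names. They are followed by the 3 miRNAs whose signal was most like that of the 9 over the arrays, and by let-7b and let-7c, which with miR-199b were the least like, since the results below turn on that likeness. All sequences are RefSeq's, from GRCm38.p6, and 9 of 13 names looked up were matched.
miR-2136: cUGGGUGUugacugagaugug
miR-2137: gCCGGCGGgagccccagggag
miR-2139: aGCUGCGCugcuccugguaacugc
miR-2861: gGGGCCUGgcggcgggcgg
miR-705: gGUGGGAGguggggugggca
miR-690: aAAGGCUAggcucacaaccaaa
let-7b: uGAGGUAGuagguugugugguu
let-7c: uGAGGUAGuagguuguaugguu

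On the plus strand miR-2136 lies at chr9:104426163-104426183 and miR-2137 at chrX:72992113-72992133. On the minus strand lie miR-2139 at chr4:139967531-139967554, miR-2861 at chr2:32712819-32712837, miR-705 at chr6:85336341-85336360 and miR-690 at chr16:28599940-28599961. let-7b and let-7c, at chr15:85707325-85707346 and chr15:85706616-85706637 on the plus strand, share one seed. No other 2 of the 8 printed miRNAs do. The letters differ in base composition. G and C made up 94.7% of miR-2861, 85.7% of miR-2137 and 75% of miR-705, against a median of 52.2% over 1674 distinct mature mouse miRNAs of the same source (quartiles 45.5% and 60.0%). miR-2139 (62.5%) lay above the upper quartile and miR-2136 (52.4%) near the median. miR-690 (45.5%), let-7b (45.5%) and let-7c (40.9%) lay at or below the lower quartile.

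The arrays differed in how many mature probe sets they detected, and this number moved with age. The young MR-intact arrays had 247, 228 and 269 mature probe sets above background and the young MR-knockout arrays 248, 257 and 183. The aged MR-intact arrays had 131, 168, 124 and 121 and the aged MR-knockout arrays 136, 91 and 121. Every aged array thus had fewer than every young one, with young MR-knockout replicate 3 and aged MR-intact replicate 2 nearest to each other. The mean was 127 in aged and 239 in young aortas, a difference of -111 (exact two-sided permutation test over arrays, p = 0.000583, adjusted over 3 comparisons p = 0.00175). That p is the smallest that this design allows. The size of the difference depends on the background chosen, since it was -53.7 with the highest precursor probe set as background. Repeating quantile normalization over the mature probe sets gives all arrays one distribution, which removes such a difference by construction. The -11.0 found after it reflects only the array backgrounds, which were kept from the deposited values. Within genotypes the difference was -112 in MR-intact aortas (exact p = 0.0286, adjusted p = 0.0429) and -113 in MR-knockout aortas (exact p = 0.1, adjusted p = 0.1), again the smallest values possible. On the first principal component, which held 64.9% of the variance, aged MR-intact replicate 2 and young MR-knockout replicate 3 lay towards the other age and aged MR-knockout replicate 2 lay apart from the rest. Results below are also given without these 3 arrays, which were picked from these same data. Leaving out arrays that lie towards the other age widens the gap between ages by construction, so calls with age are then no independent check. It also narrows the spread in number within groups, on which the slope below rests.

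With age, 4 of the 9 probe sets rose and none fell. miR-2133, miR-2135, miR-2145 and miR-2146 rose by 2.75-fold to 4.07-fold averaged over genotypes (limma, adjusted p under 0.05 over 717 probe sets). Calls over the whole array leaned the other way. Over all 717 mature probe sets 2.09% were called higher in aged aortas and 22.3% lower. Among the 73 probe sets above background on all 13 arrays, a set that holds all 9 members, 13.7% were called higher. The median change was 0.90 log2 units over the 9, -0.07 over all 717, and -0.36 over the 64 other probe sets above background on all arrays. Since the names were picked with these changes known, the counts describe the 9 and support nothing further. In bulk tissue a change in the makeup of the cells and a change in the RNA per cell cannot be told apart.

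miR-2146 read 10.65, 11.26 and 10.37 log2 units in the young MR-intact arrays and 10.58, 10.30 and 12.20 in the young MR-knockout arrays. It read 12.68, 12.17, 13.09 and 12.87 in the aged MR-intact arrays and 12.56, 13.45 and 13.40 in the aged MR-knockout arrays. Within each genotype every aged value lay above every young one, and across genotypes a single pair crossed, young MR-knockout replicate 3 at 12.20 and aged MR-intact replicate 2 at 12.17. These are the 2 arrays whose numbers above background, 183 and 168, were nearest to each other. The rise with age was 2.03 log2 units (SE 0.32, 95% interval 1.31 to 2.74, limma adjusted p = 0.00128), or 4.07-fold.

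miR-2133 read 7.60, 8.05 and 7.64 in young MR-intact arrays and 8.26, 7.72 and 9.00 in young MR-knockout arrays. It read 9.51, 8.22, 9.96 and 10 in aged MR-intact arrays and 10.26, 10.63 and 10.15 in aged MR-knockout arrays. The same pair of arrays crossed, since aged MR-intact replicate 2 (8.22) was the lowest aged array and young MR-knockout replicate 3 (9.00) the highest young one. The rise was 1.84 log2 units (SE 0.31, 95% interval 1.16 to 2.52, limma adjusted p = 0.00154), or 3.58-fold.

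miR-2135 read 7.86, 8.28 and 7.95 in young MR-intact arrays and 8.04, 7.60 and 9.12 in young MR-knockout arrays. It read 8.43, 9.32, 10.50 and 9.84 in aged MR-intact arrays and 9.43, 10.84 and 10.66 in aged MR-knockout arrays. Here 6 of 7 aged arrays lay above all young ones, and the exception was aged MR-intact replicate 1. The rise was 1.77 log2 units (SE 0.38, 95% interval 0.94 to 2.61, limma adjusted p = 0.0060), or 3.42-fold.

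miR-2145 read 8.48, 8.84 and 8.67 in young MR-intact arrays and 9.13, 8.63 and 9.37 in young MR-knockout arrays. It read 9.74, 8.98, 10.21 and 9.90 in aged MR-intact arrays and 9.79, 12.24 and 10.71 in aged MR-knockout arrays. Aged MR-knockout replicate 2, the array with the fewest probe sets above background (91), held the highest value, and 6 of 7 aged arrays lay above all young ones. The rise was 1.46 log2 units (SE 0.36, 95% interval 0.67 to 2.24, limma adjusted p = 0.0122), or 2.75-fold. In aged MR-knockout replicate 2 the 64 other probe sets above background on all arrays had a median of 8.20 log2 units. On every other array that median lay between 9.27 and 9.66.

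The other 5 names were not called. miR-2138 had a median of 10.02 in young arrays (9.55 to 10.71) and of 10.58 in aged arrays (10.33 to 12.58), with 12.58 in aged MR-knockout replicate 2. Its change was 0.90 log2 units (95% interval 0.18 to 1.61, limma adjusted p = 0.0671). miR-2141 had a median of 6.92 in young arrays (6.62 to 7.34) and of 7.68 in aged ones (6.76 to 9.01), a change of 0.71 (adjusted p = 0.158). Its 2 highest values, 9.01 and 8.53, were in aged MR-knockout replicates 2 and 3. miR-2140 had a median of 7.63 in young arrays (7.30 to 8.18) and of 8.43 in aged ones (7.20 to 9.15), a change of 0.49 (adjusted p = 0.173).

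miR-2132 and miR-2134 stood apart from the other 7. miR-2132 had a median of 10.36 in young arrays (9.50 to 11.23) and of 10.44 in aged ones (9.54 to 10.97), and the change in the fitted means was -0.20 log2 units (95% interval -0.97 to 0.56, limma adjusted p = 0.746). miR-2134 had a median of 9.50 in young arrays (9.11 to 9.97) and of 9.38 in aged ones (8.46 to 10.03), a change of -0.27 (95% interval -0.77 to 0.22, adjusted p = 0.431). The ages overlapped almost fully in both. With each array centred on the other probe sets above background on all arrays these 2 changes turned to 0.11 and 0.04, so no direction is given.

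**Figure D1:**
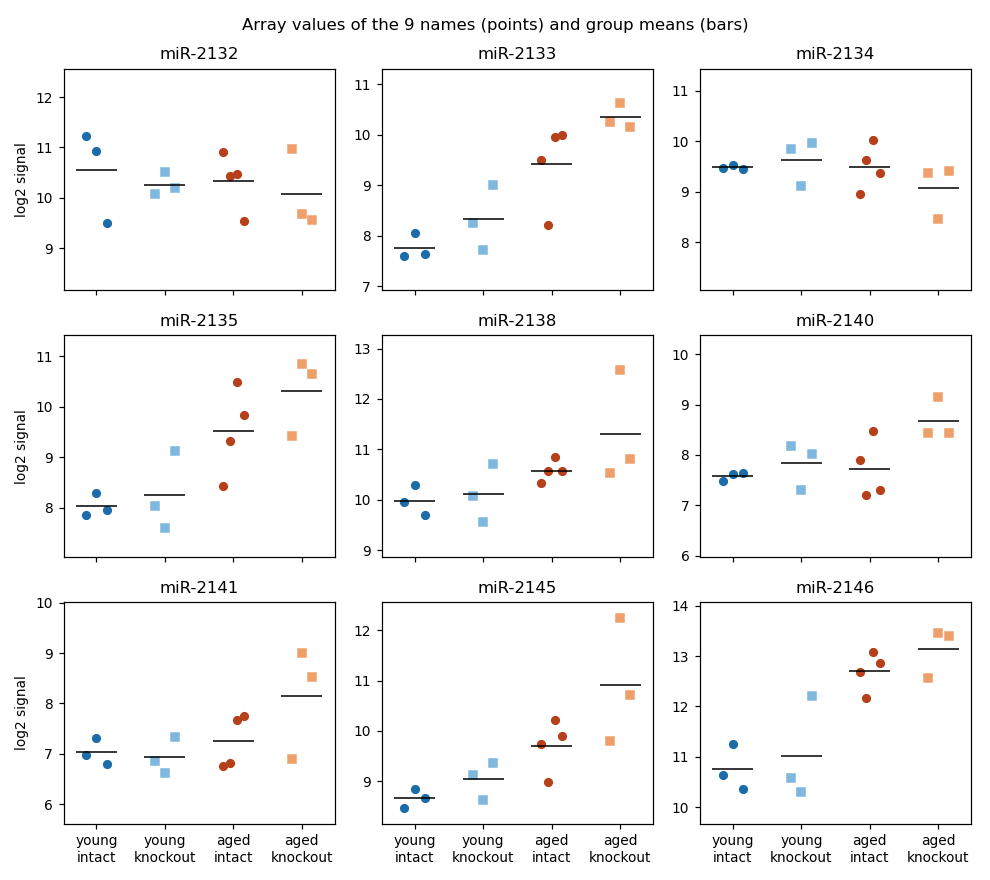
Deposited log2 signal of the 9 names on each of the 13 arrays (points) with the mean of each group (bars), one panel per name, with age and genotype on the horizontal axis. miR-2133, miR-2135, miR-2145 and miR-2146 are higher in aged than in young arrays of the same genotype with no overlap, while miR-2132 and miR-2134 overlap between ages.

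Overlap between ages gave a similar picture, read against the whole array. In MR-intact aortas every aged value lay above every young one for 5 of the 9, miR-2133, miR-2135, miR-2138, miR-2145 and miR-2146, against 4.6% of all 717 probe sets. In MR-knockout aortas this held for 5 of the 9, with miR-2140 in place of miR-2138, against 5.02% of all. Over both genotypes together it held for 0 of the 9 and for 0.279% of all.

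Within MR-intact aortas alone 2 of the 9 rose, against 1.26% of all probe sets called higher and 13.7% called lower. The increase was 1.94 log2 units for miR-2146 (95% interval 0.96 to 2.92, limma adjusted p = 0.0164) and 1.66 for miR-2133 (0.73 to 2.59, adjusted p = 0.0254). miR-2135 changed by 1.49 (adjusted p = 0.0829) and miR-2145 by 1.04 (adjusted p = 0.201), short of the threshold. The count was 0 without young MR-intact replicate 1 or 3 and 1 without aged MR-intact replicate 3 or 4. miR-2133 lost its call without aged MR-intact replicate 1, 3 or 4, and without replicate 1 miR-2135 was called in its place. Within MR-knockout aortas 4 of the 9 rose, against 1.12% of all called higher and 9.9% called lower. miR-2146 rose by 2.11 (adjusted p = 0.0191), miR-2133 by 2.02 (adjusted p = 0.0190), miR-2135 by 2.06 (adjusted p = 0.0424) and miR-2145 by 1.87 (adjusted p = 0.0452). That count also rested on single arrays. It was 0 without aged MR-knockout replicate 2 or 3 or young MR-knockout replicate 1 or 2, and 2 without aged MR-intact replicate 4 or any one of the young MR-intact arrays. Without the 3 arrays that lay apart 3 of the 9 were called in MR-intact aortas, with miR-2145 added, and 4 in MR-knockout aortas. Averaged over genotypes, the 4 names were called whichever single array was left out.

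None of the 9 was called between knockout and MR-intact aortas. In young aortas 0 of the 9 and 0% of all probe sets were called between genotypes (limma, adjusted p = 1 for each of the 9). At an unadjusted p under 0.05, 0 of the 9 and 17 of 717 passed. In aged aortas 0 of the 9 and 0.139% of all were called. The median difference there, knockout minus MR-intact, was 0.79 log2 units over the 9, of which 7 were higher in knockout. It was -0.03 over all 717 and -0.29 over the 64 others above background on all arrays. There, 2 of the 9 and 48 of 717 had an unadjusted p under 0.05, miR-2145 with 1.21 log2 units higher in knockout (95% interval 0.13 to 2.28, adjusted p = 0.727) and miR-2140 with 0.95 (95% interval 0.24 to 1.67, adjusted p = 0.619). The interval for miR-2146 in aged aortas ran from -0.54 to 1.41 around 0.43, so differences of that size between genotypes could not be shown with these arrays. The interaction, the change with age in knockout minus that in MR-intact aortas, was called for 0 of the 9 and 0% of all (0 of the 9 and 28 of 717 at an unadjusted p under 0.05), with a median of 0.56 over the 9 and of 0 over all.

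Among arrays of the same age and genotype, miR-2146 and miR-2133 were lower where more probe sets were above background. The slope on that number was fitted in limma beside the 4 group means, and is given in log2 units per 100 further probe sets above background. It was negative for 8 of the 9 and passed the test for 2, against 0.418% of all probe sets with a called negative slope and 1.53% with a called positive one. Among the 73 probe sets above background on all arrays 4.11% had a called negative slope, and 2 of those 3 probe sets were members. The median slope was -1.65 over the 9, 0.17 over all 717 and 0.54 over the 64 others above background on all arrays. The number and the signals come from the same arrays, and the rule that set the 9 beside this number was written with the data known.

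miR-2146 had a slope of -2.18 (SE 0.27, 95% interval -2.79 to -1.57, adjusted p = 0.00644) and miR-2133 one of -1.85 (SE 0.40, adjusted p = 0.0497). The slopes of miR-2145 (-1.78, adjusted p = 0.139), miR-2135 (-1.76, adjusted p = 0.179), miR-2141 (-1.65, adjusted p = 0.147), miR-2138 (-1.65, adjusted p = 0.125) and miR-2140 (-0.83, adjusted p = 0.379) did not pass. miR-2132 (0.19, adjusted p = 0.941) and miR-2134 (-0.04, adjusted p = 0.981) were near 0 with wide intervals, -1.60 to 1.97 for miR-2132. The slope of miR-2146 lost its call without young MR-knockout replicate 3, when 0 of the 9 passed. Without any other single array it passed, and miR-2133 passed beside it only when aged MR-knockout replicate 1 or 2 was left out. Without the 3 arrays that lay apart 0 of the 9 slopes passed.

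**Figure D2:**
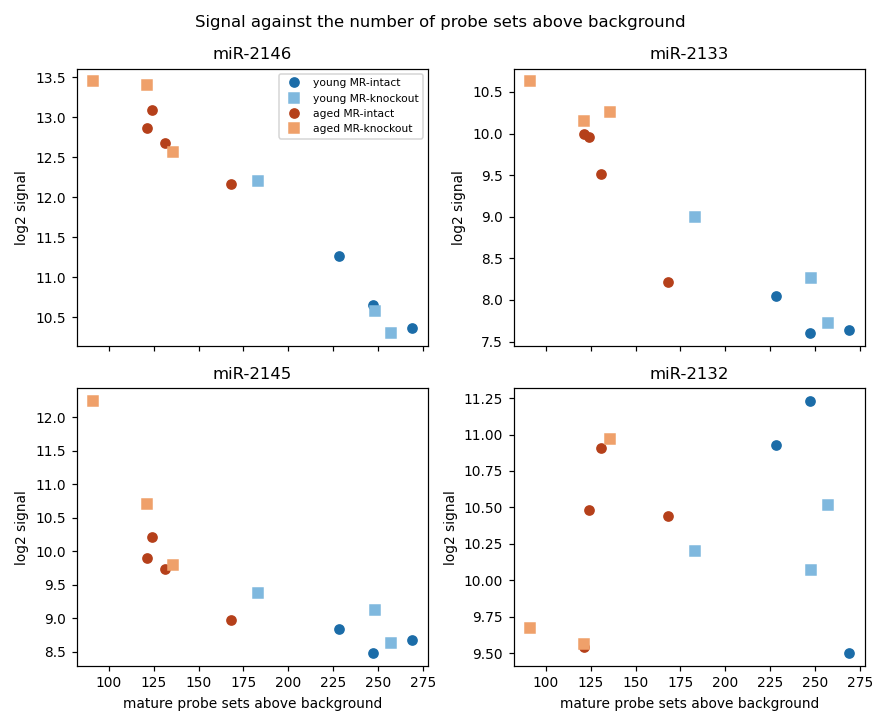
Log2 signal of miR-2146, miR-2133, miR-2145 and miR-2132 (vertical axes) against the number of mature probe sets above background on the same array (horizontal axis), with one point per array and one colour and shape per group. The first 3 go from high to low from the arrays with the fewest probe sets above background, which are aged, to those with the most, which are young, and young MR-knockout replicate 3 (183) and aged MR-intact replicate 2 (168) lie between the ages. miR-2132 shows no such order.

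With the number above background added to the group means, no change with age was called for any of the 9. The age term was -0.43 log2 units for miR-2146 (95% interval -1.16 to 0.31), -0.24 for miR-2133 (-1.32 to 0.84), -0.20 for miR-2135 (-2.01 to 1.60) and -0.55 for miR-2145 (-2.15 to 1.05), each with a limma adjusted p of 0.999. The numbers of aged and young arrays did not overlap, so in these data the change with age and the change with the number above background cannot be told apart. Without the 3 arrays that lay apart, and without the covariate, 5 of the 9 were called higher, the 4 named above and miR-2138. The choice of those arrays favours such calls, so this count is no independent check.

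**Figure D3:**
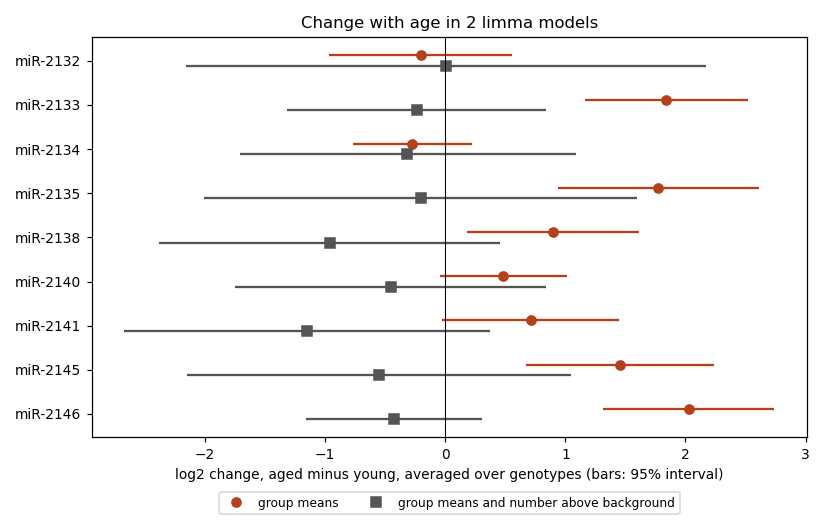
Change with age of each of the 9 names, averaged over genotypes, in log2 units with 95% intervals, from the limma model with group means (circles) and from the model that also holds the number of probe sets above background (squares). The circles of miR-2133, miR-2135, miR-2145 and miR-2146 lie at 1.46 or above, and every square has an interval that spans 0.

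The 9 did not move as one. The Pearson correlations over the 13 arrays between pairs of the 7 names other than miR-2132 and miR-2134 ran from 0.57 to 0.93 in 21 pairs, with a median of 0.83. With group means removed they ran from 0.42 to 0.86, with a median of 0.64. The closest pair was miR-2133 and miR-2146 (0.93), followed by miR-2135 with miR-2146 and miR-2138 with miR-2145 (both 0.92). miR-2132 and miR-2134 correlated with the 7 at -0.54 to -0.12, and with each other at 0.11. With group means removed the range with the 7 was -0.54 to 0.42, with miR-2134 and miR-2135 at the upper end. The 7 were grouped after their values were seen, and the points share arrays and the age groups, so these values are a description with no test.

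Hairpin precursors gave no comparable signal. The table held 6 precursor probe sets for 4 of the names, miR-2132, miR-2135, miR-2141 and miR-2145. Over the 13 arrays their 78 values lay between 0.47 and 2.69, and 1 of the 78 was above its array's background, a probe set of miR-2135 in aged MR-knockout replicate 3. Since the background is a percentile of precursor probe sets, 1% of such values lie above it by construction.

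The neighbours in number differed from the 9. miR-2136 and miR-2139 were above background on no array, with highest values of 0.87 and 0.95. miR-2137 read 8.39, 8.29 and 7.18 in young MR-intact arrays and 7.91, 7.90 and 7.48 in young MR-knockout arrays. In aged MR-intact arrays it read 7.93, 7.85, 4.93 and 7.64, and in aged MR-knockout arrays 9.76, 1.89 and 7.53. It was at background in aged MR-knockout replicate 2 (1.89), the array in which 7 of the 9 names, all but miR-2132 and miR-2134, had the highest of their 13 values. Its change with age was -1.12 log2 units (SE 1.09, limma adjusted p = 0.517).

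Of 42 names on the array without a matched RefSeq gene, 33 remain beside the 9, and 13 of the 33 were above background on any array. The match was by the spelling of the name, so a miRNA whose gene RefSeq writes in another form would count among the 33. With age averaged over genotypes 0 of the 33 were called higher and 8 lower, beside 2.09% and 22.3% of all probe sets. In MR-knockout aortas alone 1 was called higher, miR-1274a, which was above background on no array. Among the 9, miR-2141 was the dimmest, with means of 6.98 in young and 7.63 in aged arrays. The 2 other names above background on all arrays were miR-1959 (mean 7.71, change with age -1.12, adjusted p = 0.0671) and miR-1196 (mean 6.21, change 0.47, adjusted p = 0.725). Both lie outside the run of numbers of the 9, and miR-1959 was brighter than miR-2141. The 33 include 5 names known to be transfer RNA fragments. Of these miR-1937a, miR-720 and miR-1937b, which are among the 8 called lower, fell, with changes of -3.29, -2.8 and -2.52 log2 units (adjusted p = 0.00231, 0.00399 and 0.0160), while miR-1937c, like miR-1274a, was above background on no array.

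Among the 64 other probe sets above background on all arrays, the 5 most like the mean of the 9 over the 13 arrays were miR-2861 (r = 0.956), miR-705 (0.933), miR-690 (0.898), miR-455 (0.788) and miR-709 (0.757). With group means removed the first 3 stayed at the top, at 0.894, 0.823 and 0.831, and the next were miR-1931 (0.643) and miR-466f-3p (0.618). In mouse, miR-2861 is known to promote bone formation by osteoblasts, and miR-705 to hold it back. The likeness is over 13 arrays that fall into the age groups, between probe sets of the same arrays, and has no test. The mean of the 9 itself differed between ages. Changes with age and slopes of names picked as most or least like it therefore follow in part from the choice.

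miR-2861 read 9.66, 9.74 and 9.08 in young MR-intact arrays and 9.43, 9.43 and 10.17 in young MR-knockout arrays. It read 10.42, 9.82, 10.80 and 10.64 in aged MR-intact arrays and 10.46, 11.23 and 10.56 in aged MR-knockout arrays. As for miR-2146, young MR-knockout replicate 3 was the highest young array and aged MR-intact replicate 2 the lowest aged one. It rose by 1.0 log2 units with age (SE 0.22, limma adjusted p = 0.00676) and its slope on the number above background was -1.43 (SE 0.22, adjusted p = 0.0112), the third called negative slope of the array beside those of miR-2146 and miR-2133.

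miR-705 rose by 2.09 log2 units with age (SE 0.41, adjusted p = 0.00399) and miR-690 by 0.89 (SE 0.23, adjusted p = 0.0176), with slopes of -2.34 (adjusted p = 0.0633) and -1.36 (adjusted p = 0.0548). miR-455 rose by 1.11 (adjusted p = 0.0373), and miR-709 changed by 0.36 (adjusted p = 0.0890).

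The least like were miR-199b (r = -0.936), let-7c (-0.924) and let-7b (-0.915). let-7 miRNAs are abundant in differentiated cells and repress growth genes. let-7c read 14.21, 14.25 and 14.25 in young MR-intact arrays, 14.38, 14.34 and 13.99 in young MR-knockout arrays, 13.47, 13.55, 13.27 and 13.28 in aged MR-intact arrays and 13.54, 12.60 and 13.05 in aged MR-knockout arrays. No aged array reached a young one, and the change was -1.01 log2 units (SE 0.14, adjusted p = 0.00067). let-7b changed by -0.65 (adjusted p = 0.00443). miR-199b changed by -0.53 (adjusted p = 0.0534) and had a called positive slope of 1.08 per 100 probe sets (SE 0.23, adjusted p = 0.0412).

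**Figure D4:**
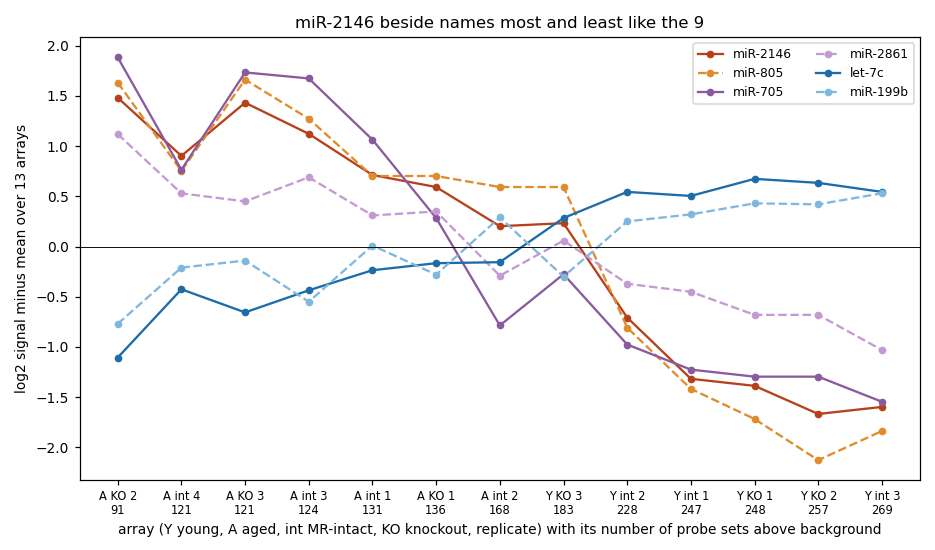
Log2 signal of 6 names on each array minus that name's mean over the 13 arrays (vertical axis), with arrays ordered by their number of mature probe sets above background (horizontal axis). miR-2146, miR-805, miR-705 and miR-2861 go from high to low as the number rises from 91 to 269, and let-7c and miR-199b from low to high.

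miRNAs known from the vascular wall formed a list of 16, of which 14 were above background on all arrays. On that list 5 fell with age and none rose, with a median change of -0.39 log2 units, near the -0.36 of all other probe sets above background on all arrays. miR-143, which keeps smooth muscle cells contractile, changed by -0.67 (adjusted p = 0.00875) and miR-145, its cluster partner, by -0.48 (adjusted p = 0.0141). Some cell type lists held names called with age, to be read beside the 22.3% of all probe sets called lower and 2.09% called higher. All 4 of the striated muscle list fell, with a mean level of 4.36 to 6.05 in young arrays and 0.93 to 2.98 in aged ones, and none of the 4 was above background on all arrays. Of the 6 leukocyte miRNAs 2 fell (3.64 to 3.82 in young and 1.79 to 4.30 in aged arrays), of the 4 adipose ones 1 rose and 1 fell (6.42 to 6.55 and 4.90 to 5.56), and of the 3 erythroid (6.17 to 6.53 and 3.32 to 6.41) and 2 endothelial ones (5.24 to 5.65 and 5.27 to 5.88) none passed. The endothelial level averages the bright miR-126-3p with miR-126-5p, which was above background on no array. The part of these cell types in the changes of the 9 was not tested.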

How the data were processed

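One single-colour array with biotin-labelled RNA was run for each of 13 aorta samples. The authors deposited log2 values of 1412 probe sets (0.07 to 14.38), made with RMA, affy and limma, per the submitters' processing notes, which give no versions. The log base was taken as 2 from the range. RMA usually equalises the distributions of arrays, which ties the values of one array to each other, but whether the 13 arrays were normalised together is not given in the sources used here. Array design and filters: not given in the sources used here. Arrays have no read depth, and their number limits the precision.

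limma 3.58.1 (R 4.3.3) with 4 group means and eBayes without trend was fitted to the 717 mature probe sets, with Benjamini-Hochberg adjustment over all of them and calls at an adjusted p under 0.05. The fit was tested on simulated data with independent normal noise for each probe set. That setting lacks the variation that probe sets share on these arrays, so it lends the calls no support. The slope was fitted by adding the number above background. Named miRNAs were the 9, names miR-2131 to miR-2147, the 5 most and 3 least like the mean of the 9, the 5 most like it with group means removed, and the lists described. The members and lists were chosen with earlier results of these data known. Sequences were matched by name, with let-7b and let-7c taken as the 5p arm. Alternatives covered normalization, filters, the prior, array weights, the covariate and each array left out.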

Additional observations from a re-analysis of the deposited data

Results flagged for a closer look

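One probe set outside the 717 mature ones stood out. miR-805, whose name carries the mark of an earlier catalogue release and which entered none of the tests above, was above background on all 13 arrays. It read 10.23, 10.84 and 9.81 log2 units in young MR-intact arrays, 9.93, 9.52 and 12.24 in young MR-knockout arrays, 12.35, 12.24, 12.92 and 12.40 in aged MR-intact arrays and 12.35, 13.28 and 13.31 in aged MR-knockout arrays. As for miR-2146, young MR-knockout replicate 3 was the single young array at the level of the aged ones. In a limma fit over all 1412 probe sets miR-805 was 2.30 log2 units higher in aged aortas averaged over genotypes (SE 0.40, 95% interval 1.41 to 3.19, adjusted p = 0.00327). Its slope on the number above background was -2.57 per 100 probe sets (SE 0.46, adjusted p = 0.0385). Over the 13 arrays it correlated with miR-2146 at r = 0.991, and at 0.967 with group means removed, a description of probe sets that share arrays and age groups.

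The 4 aged MR-intact arrays were searched for a sample far from the others in the 9 names and in the number above background. None of these 10 sets passed the critical value of 0.829. Groups of 3 arrays are too small for this search.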

How the results depend on the processing

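When the number above background entered as a covariate, 0 of the 9 were called with age averaged over genotypes, in MR-intact and in MR-knockout aortas, and the changes of the 4 called names turned to -0.24 (miR-2133), -0.20 (miR-2135), -0.55 (miR-2145) and -0.43 (miR-2146) log2 units, each with a limma adjusted p of 0.999. Leaving out single arrays gave 4 to 6 called names for age averaged over genotypes, 0 to 2 for MR-intact aortas, 0 to 5 for MR-knockout aortas and 0 to 2 for the slope on the number above background. For MR-intact aortas the count was 1 after repeated quantile normalization, 4 with array weights and 1 with only that genotype in the fit. For MR-knockout aortas it was 2 after repeated quantile normalization, 2 with all 1412 probe sets tested and 1 with only that genotype. For the slope it was 1 after repeated quantile normalization, with centring on probe sets above background on all arrays, with all probe sets, with the trend and robust prior and with array weights, 0 without the 3 arrays that lay apart, and 6 when group means were left out. The cause of these shifts was not tested, beyond the fewer arrays or the larger number of probe sets that some settings hold by construction. Genotype and interaction counts were 0 under every alternative run.

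Of 162 member changes under other settings 152 kept their sign, and most of these settings left out a single array. With the covariate every name with a rise in the main fit changed sign. Beside the 4 called names these were miR-2138 (-0.96 log2 units), miR-2140 (-0.45) and miR-2141 (-1.15), with 95% intervals that spanned 0. The difference in number above background kept its sign and its call over both genotypes with single arrays left out, between -122 and -105. It did so too at the 95th percentile (-106) and against the highest precursor (-53.7). After repeated quantile normalization it was -11.0 (exact permutation p = 0.0105), a value that reflects only the array backgrounds. No paired analysis was run because the labels state no pairing, and the replicate numbers used here were given in sample order and are not in the labels. The limits are 3 or 4 arrays a group, no labelled batch, and age and number above background that run together.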

Other observations

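miR-1931 and miR-466f-3p followed the 9 less closely than miR-2861 did, with r of 0.696 and 0.722 over the 13 arrays. The young arrays of miR-1931 averaged 3.81 ± 1.09 log2 units (SD, n = 3) with intact MR and 3.92 ± 0.07 (n = 3) without, and the aged arrays 7.32 ± 1.32 (n = 4) and 6.07 ± 2.94 (n = 3). Averaged over genotypes it was 2.83 log2 units higher in aged aortas (SE 0.85, limma adjusted p = 0.0331). miR-466f-3p averaged 4.70 ± 0.61 (n = 3), 5.67 ± 1.44 (n = 3), 8.03 ± 0.72 (n = 4) and 7.08 ± 0.52 (n = 3) in the same order. It was 3.32 log2 units higher with age in MR-intact aortas (SE 0.62, adjusted p = 0.00683) and 1.41 in MR-knockout aortas (SE 0.67, adjusted p = 0.199), and the difference between these was not called by the interaction test, which called no probe set.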
